A study of Mus musculus with 25 samples.

Results

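The genes described here carry peptides to the cell surface on classical major histocompatibility complex (MHC) class I molecules. They were the rows of the deposited count table with the symbols H2-K1, H2-D1, B2m, Tap1, Tap2, Tapbp, Psmb8, Psmb9, Psmb10 and Nlrc5, which are 10 of 55450 genes. All 10 had enough counts to be tested. The tumours were B2905 melanomas, also called M4, a single mouse line grown in C57BL/6 mice. Of 40 implanted mice, 30 were given anti-CTLA-4, which blocks a brake on T cell activation, and 5 were given isotype IgG2b antibody, both at 10 mg/kg and from an average tumour volume of 75 mm3. Sequenced were 5 IgG2b tumours, called controls, and 20 anti-CTLA-4 tumours, which the submitters sorted by tumour growth up to 10 to 11 days after the last dose. These were 6 non-responders that kept growing, 6 stable tumours and 8 responders that shrank. Every group shared the cell line, the host strain and an antibody injection. Each library came from 1 whole tumour, so its RNA came from melanoma cells and host cells together, and fewer cells of a type cannot be told apart from less RNA per cell. Each tumour has its own identifier in the labels, and the p-values measure the spread between these tumours.

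Class I molecules show fragments of a cell's own proteins to CD8 T cells. The proteasome cuts proteins into peptides, the TAP transporter moves the peptides into the endoplasmic reticulum, and tapasin holds an empty heavy chain with its light chain β2-microglobulin until a peptide fits. Interferon gamma from T and NK cells induces most of the pathway, replaces 3 proteasome subunits with immunoproteasome subunits, and raises NLRC5, the transcriptional activator of class I genes. Leukocytes also express the pathway strongly, so a bulk level holds both sources.

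The genes sit in 3 places in GRCm38. On chromosome 17, within the MHC, lie Tapbp (chr17:33915899-33929292), H2-K1 (chr17:33996017-34000347), Psmb9 (chr17:34181987-34187764), Tap1 (chr17:34187553-34197225), Psmb8 (chr17:34197721-34201454), Tap2 (chr17:34203527-34216321) and H2-D1 (chr17:35262730-35267499). B2m lies on chromosome 2 (chr2:122147686-122153083), and Nlrc5 (chr8:94434356-94527272) and Psmb10 (chr8:105935735-105938444) lie on chromosome 8. Psmb9 and Tap1 run in opposite directions, with RefSeq start sites 226 bases apart and annotated ends that overlap by 212 bases. The counting strand is not given in the sources used here, so reads in that overlap could have been given to either gene.

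RefSeq upstream sequence of GRCm38.p6 was found for 8 of the 10 genes. H2-K1 and B2m encode the chains of the same surface molecule and are shown because their levels parted in responders. Both run 5′ to 3′ along the gene's own strand, from base -250 before the start site to -1 in H2-K1 and to -2 in B2m. H2-K1 is chr17:34000348-34000597 on the minus strand and B2m is chr2:122147437-122147685 on the plus strand. Capitals mark letters that fit the NF-kB site form of the class I enhancer or the interferon-stimulated response element core GAANNGAAA on either strand.
H2-K1: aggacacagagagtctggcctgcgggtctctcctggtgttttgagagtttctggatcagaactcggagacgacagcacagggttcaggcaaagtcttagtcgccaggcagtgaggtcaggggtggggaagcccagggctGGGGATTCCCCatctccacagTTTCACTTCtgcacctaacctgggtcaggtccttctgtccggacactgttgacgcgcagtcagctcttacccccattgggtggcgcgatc
B2m: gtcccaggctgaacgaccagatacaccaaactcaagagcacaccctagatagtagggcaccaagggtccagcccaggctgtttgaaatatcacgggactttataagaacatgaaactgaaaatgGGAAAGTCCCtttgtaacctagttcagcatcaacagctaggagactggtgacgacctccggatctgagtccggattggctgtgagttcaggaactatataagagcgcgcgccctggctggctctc

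The 2 heavy-chain genes share most of this stretch, which is shown because the levels of H2-K1 and H2-D1 were closely correlated across tumours (r = 0.972 after subtracting group means). H2-K1 was as closely correlated with Psmb8 (r = 0.979), whose upstream window held neither of the marked motifs. The part of these letters in the levels was not tested. The H2-K1 stretch is chr17:34000429-34000458 on the minus strand, and the H2-D1 stretch is chr17:35262923-35262952 on the plus strand. They were identical at 29 of 30 bases and differed by A18T, counted from 1 at the 5′ end with the H2-K1 base first.
H2-K1 stretch: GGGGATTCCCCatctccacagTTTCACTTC
H2-D1 stretch: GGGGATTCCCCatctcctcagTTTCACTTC

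Each motif was searched on both strands of the 250 bases upstream of 32851 RefSeq starts. The NF-kB form was found for H2-K1, H2-D1 and B2m, 3 of 8 genes, against 3.44% of all windows. The response element core was found for H2-K1 and H2-D1, 2 of 8, against 6.31%. Only this form of the core was searched. In B2m, GAAA and GAAA lie 2 bases apart just upstream of the NF-kB letters. The searched form, which begins with the shorter GAA, does not match these letters. The missing match therefore does not show that B2m lacks a response element. The CRE core TGACG, part of the box that NLRC5-dependent promoters carry, was found for 5 of 8 (H2-K1, H2-D1, B2m, Tap1 and Psmb9), against 17.8%. CCAAT, bound by NF-Y, was found for 6 of 8, against 33.9%. The windows of Tap1 and Psmb9 overlap over most of their length. Their CRE core and their CCAAT are the same bases, counted once for each gene. These matches describe letters and were not tested as binding sites.

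Total counts ran from 8.76 to 34.3 M per tumour, and the lowest count of any member in any tumour was 299. The share of counts in protein-coding genes was 87.4 ± 0.842% in controls (SD, n = 5), 86.1 ± 1.97% in non-responders (n = 6), 86.2 ± 1.86% in stable tumours (n = 6) and 63.9 ± 18.8% in responders (n = 8). Responder 5, at 87.0%, lay among the other groups, while the other 7 responders lay between 23.8% and 74.3%. The labels number the libraries group after group, so processing order and group cannot be told apart. The melanoma label was checked on 7 melanocytic genes. Their summed level ran from 10504 to 17110 CPM (counts per M counts of the TMM-scaled library) in controls, from 723 to 13868 in non-responders, from 227 to 504 in stable tumours and 303 to 722 in responders. Mlana and Tyr were at 0 in at least 1 responder.

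All 10 genes were higher in stable tumours than in controls, with a median log2 fold change of 2.00 against 0.02 over the 18031 genes tested. In edgeR's quasi-likelihood test with Benjamini-Hochberg adjustment over all genes, 41.8% of genes passed 0.05 in that comparison and 22.2% were higher. Responders had 9 of 10 genes higher than controls, with B2m the exception and a median of 1.49 against 0.16 (65% of all genes called, 36.1% higher). Non-responders also had 9 of 10 higher than controls, again not B2m, with a median of 1.36 against 0.04 (13.9% called, 10.6% higher). These 3 comparisons share the 5 controls. Among anti-CTLA-4 tumours fewer members differed. Stable tumours exceeded non-responders in Tap2 and Tapbp (14.9% of all genes called, 7.08% higher), with a median of 0.67 over the 10 genes against -0.02 over all genes. Responders exceeded non-responders in Nlrc5 alone (48.9% called, 25.2% higher), with a median of 0.16 against 0.05. Responders were lower than stable tumours in B2m, Psmb8 and Psmb10 (38.2% called, 17.8% lower), with a median of -0.53 against 0.01. Against these shares, 1 call of 10 in responders over non-responders is fewer than among all genes. The 2 and 3 calls in the comparisons with stable tumours are too few to set the members apart from other genes.

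Ranges gave the same order. Every stable tumour lay above every control for all 10 genes, which held for 18.4% of all genes tested. Every responder lay above every control for 9 genes, all but B2m, against 14.9% of all genes. Non-responders lay wholly above controls for Nlrc5 only, against 2.67%. No member was separated in the other 3 comparisons, where 5.01% of all genes were in each comparison with non-responders and 0.715% between responders and stable tumours.

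**Figure D1:**
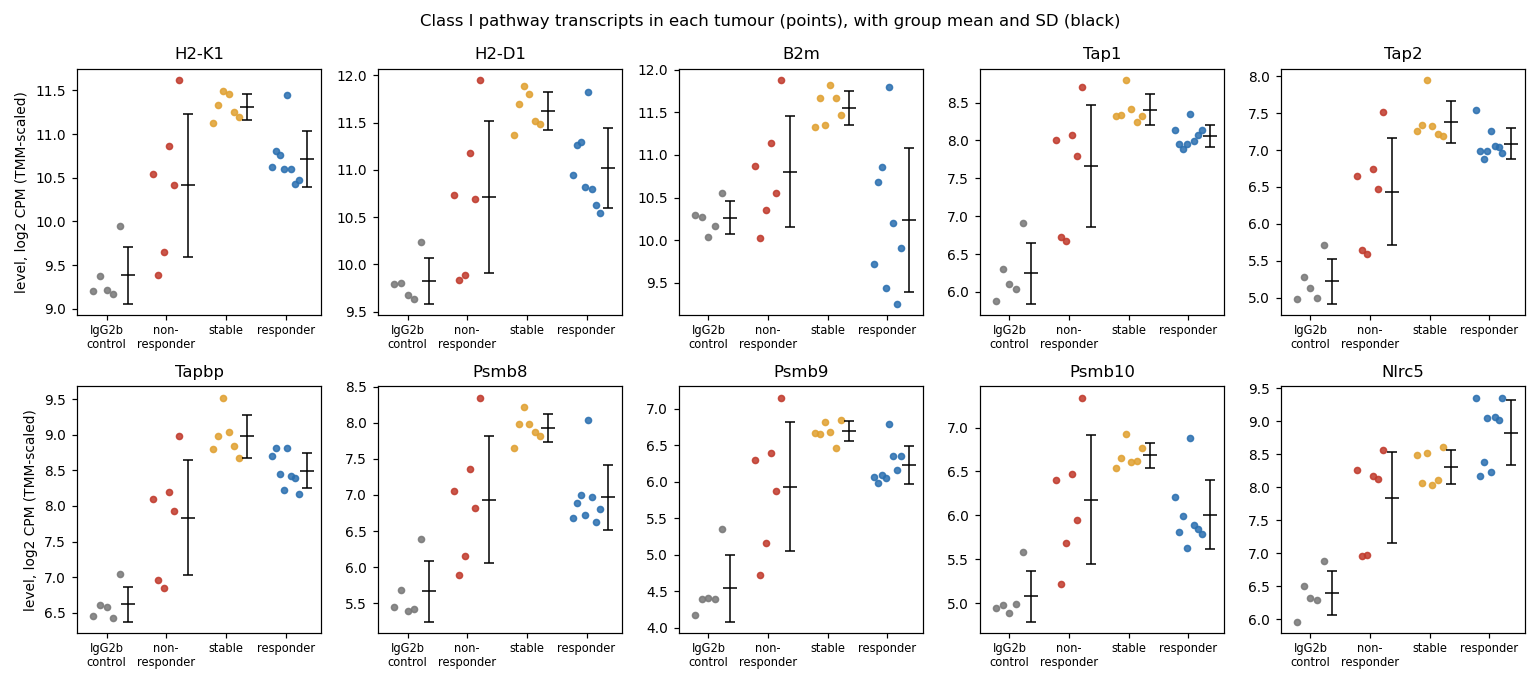
Level of each of the 10 genes in each tumour (points) in log2 CPM with a prior count of 2, by group, with the group mean and SD in black. Stable tumours sit above every control in all 10 panels, and responder 5 is the highest responder in 8 panels. Nlrc5 is the only panel in which the highest tumour is a responder.

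H2-K1 and H2-D1 encode the classical heavy chains of C57BL/6 mice, which bind the peptide. H2-K1 stood at 591, 664, 596, 577 and 986 CPM in controls 1 to 5. It ran from 671 through a median of 1425 to 3151 in non-responders, from 2238 through 2508 to 2893 in stable tumours, and from 1382 through 1566 to 2786 in responders. Non-responders 2 and 3, at 671 and 802 CPM, lay among the controls, while non-responder 6 lay above every stable tumour. The log2 fold change over controls was 1.90 (SE 0.30) in stable tumours (edgeR adjusted p = 1.72e-05), 1.34 (SE 0.28) in responders (adjusted p = 0.000227) and 1.19 (SE 0.29) in non-responders (adjusted p = 0.00693). When only non-responders and controls were fitted, that last call was lost (adjusted p = 0.0653), as were those of H2-D1 (0.0828) and Psmb8 (0.0522).

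H2-D1 followed the same order. Controls 1 to 5 held 886, 894, 818, 792 and 1211 CPM, non-responders 916 to 3966 (median 1674), stable tumours 2643 to 3776 (median 3130) and responders 1491 to 3630 (median 1894). As with H2-K1, responder 5 was the highest responder and all other responders lay below the lowest stable tumour. The log2 fold change over controls was 1.79 in stable tumours (edgeR adjusted p = 5.12e-05), 1.23 in responders (adjusted p = 0.00074) and 1.06 in non-responders (adjusted p = 0.0191). The non-responder call was lost without control 1, control 4 or non-responder 6, with adjusted p up to 0.0748. Counts of these genes were fractional in 25 of 25 tumours for H2-K1 and 24 of 25 for H2-D1, as estimated counts are where reads fit several similar class I genes, so how reads were divided between them is uncertain.

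B2m encodes the light chain, β2-microglobulin, which every classical heavy chain needs to reach the surface. Its control values were 1261, 1233, 1049, 1147 and 1500 CPM. Non-responders ran from 1040 through 1688 to 3772 CPM and stable tumours from 2569 through 3040 to 3602 CPM. Responders ran from 612 through 1070 to 3562 CPM, and 4 of the 8 lay below every control while responder 5 stood at the level of the stable tumours. B2m was higher in stable tumours than in controls by a log2 fold change of 1.29 (SE 0.37, edgeR adjusted p = 0.00711). It was lower in responders than in stable tumours by -1.09 (SE 0.32, adjusted p = 0.0125). The difference from controls was 0.20 in responders (95% interval -0.47 to 0.87, adjusted p = 0.625) and 0.66 in non-responders (-0.05 to 1.38, adjusted p = 0.237).

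The heavy and light chains thus took different courses within the same libraries, which was tested on their count ratio because it does not depend on how libraries are scaled. H2-K1 counts per B2m count were 0.469, 0.539, 0.568, 0.503 and 0.657 in controls 1 to 5. The ratio ran from 0.610 to 0.904 in non-responders, 0.751 to 1.11 in stable tumours and 0.782 to 2.26 in responders. Every responder and every stable tumour lay above every control, and 5 of 8 responders lay above every stable tumour. On the log2 scale the ratio was higher in responders than in controls by 1.36 (two-sided exact permutation p = 0.00155, adjusted p = 0.00812 over 30 ratio tests), than in non-responders by 0.87 (exact p = 0.00633, adjusted p = 0.019) and than in stable tumours by 0.72 (exact p = 0.0157, adjusted p = 0.0276). Against controls the ratio was higher by 0.64 in stable tumours (exact p = 0.00216, the smallest these groups can give, adjusted p = 0.00812) and by 0.49 in non-responders (exact p = 0.013, adjusted p = 0.026). Stable tumours and non-responders differed by 0.16 (exact p = 0.253, adjusted p = 0.292). The responders with the lowest protein-coding shares, 1, 4 and 7, had the highest ratios, at 1.86, 2.22 and 2.26, and the part of library composition in this was not tested.

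Levels can be compared between genes only per length, on the deposited RPKM values. B2m was the most abundant of the 10 transcripts in every group, followed by H2-D1 and H2-K1. In controls B2m stood at 1187 ± 155 RPKM (SD, n = 5), H2-D1 at 412 ± 83.5 and H2-K1 at 297 ± 75.0. In responders the 3 levels were closer, at 1406 ± 859, 1007 ± 257 and 791 ± 170 RPKM (SD, n = 8), and the spread of B2m covered both heavy chains.

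Tap1 and Tap2 encode the chains of the peptide transporter. Tap1 stood at 58.6, 79.1, 68.7, 65.8 and 120 CPM in controls 1 to 5. It ran from 102 through 239 to 418 CPM in non-responders, from 304 through 321 to 446 in stable tumours and from 236 through 261 to 326 in responders. Control 5 was the highest control, non-responders 2 and 3 lay below it, and stable 3 was the highest stable tumour. The log2 fold change of Tap1 over controls was 2.12 in stable tumours (SE 0.27, edgeR adjusted p = 2.30e-06), 1.77 in responders (SE 0.26, adjusted p = 4.65e-06) and 1.54 in non-responders (SE 0.27, adjusted p = 0.000627).

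Tap2 stood at 31.5, 38.6, 35.0, 31.8 and 52.6 CPM in controls, from 48.3 to 184 (median 94.3) in non-responders, from 146 to 247 (median 156) in stable tumours and 118 to 187 (median 129) in responders. Responder 1, the library with the lowest protein-coding share, was the highest responder here, whereas responder 5 was highest for Tap1. Tap2 was higher than in controls by a log2 fold change of 2.16 in stable tumours, 1.86 in responders and 1.34 in non-responders (edgeR adjusted p = 1.40e-06, 1.74e-06 and 0.00107). Stable tumours exceeded non-responders by 0.82 (SE 0.24, adjusted p = 0.0231). That call was lost without non-responder 2, non-responder 3 or stable 3, with adjusted p up to 0.0755.

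The chains kept nearly the same proportion. Tap1 counts per Tap2 count ran from 1.86 to 2.29 in controls, from 2.12 to 2.56 in non-responders, from 1.80 to 2.18 in stable tumours and 1.51 to 2.26 in responders. On the log2 scale the ratio was higher in non-responders than in controls by 0.20 (exact permutation p = 0.0325, adjusted p = 0.0487). It was lower in stable tumours than in non-responders, by -0.20 (exact p = 0.0152, adjusted p = 0.0276), and lower in responders than in non-responders, by -0.26 (exact p = 0.00566, adjusted p = 0.0189). Leaving out any of 8 of the 11 tumours lost the first of these calls, and leaving out stable 3 lost the second. The other 3 group differences were within 0.06 of 0 and did not pass 0.05.

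Tapbp encodes tapasin, the bridge between the transporter and the empty class I molecule. It stood at 87.6, 97.3, 95.9, 85.9 and 131 CPM in controls, from 115 to 504 (median 258) in non-responders, from 409 to 734 (median 481) in stable tumours and 289 to 451 (median 345) in responders. All stable tumours and responders lay far above the controls, and non-responders 2 and 3, at 124 and 115 CPM, lay below control 5. Tapbp had the largest log2 fold change of the 10 genes between stable tumours and controls, 2.36 (SE 0.28, edgeR adjusted p = 1.23e-06). It was 1.88 in responders over controls (adjusted p = 3.46e-06) and 1.38 in non-responders over controls (adjusted p = 0.00149). Stable tumours exceeded non-responders by 0.99 (SE 0.25, adjusted p = 0.0124), a call kept without any single tumour, with adjusted p up to 0.0416. It was lost when only those 2 groups were fitted, as was that of Tap2. Tapbp overlaps Zbtb22 on the same strand by 3422 bases, and its mean count was 5919 against 540 for Zbtb22.

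Of 9 other genes of peptide loading in the endoplasmic reticulum, 2 were higher and 1 lower in stable tumours than in controls, against 22.2% and 19.6% of all genes, and the median log2 fold change was 0.05. Erap1, the peptidase that trims peptides to class I length, was higher by 1.34 (edgeR adjusted p = 0.000192). The other higher gene was Tapbpl, encoding a tapasin-related peptide editor, at 2.29 (adjusted p = 2.98e-06), named here after its values were seen. Tapbpl was also the 1 gene of the 9 higher in stable tumours than non-responders (0.89, adjusted p = 0.0288), against 7.08% of all genes. In responders, whose protein-coding share was low, all 9 were lower than in stable tumours, against 17.8% of all genes, with a median of -0.71. With that share as a covariate, 0 of 18031 genes passed in this comparison. The 9 included Pdia3, the oxidoreductase of the loading complex (-0.74, adjusted p = 0.00412), and the chaperones Canx (-0.69, adjusted p = 0.00853) and Calr (-0.81, adjusted p = 0.00941).

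**Figure D2:**
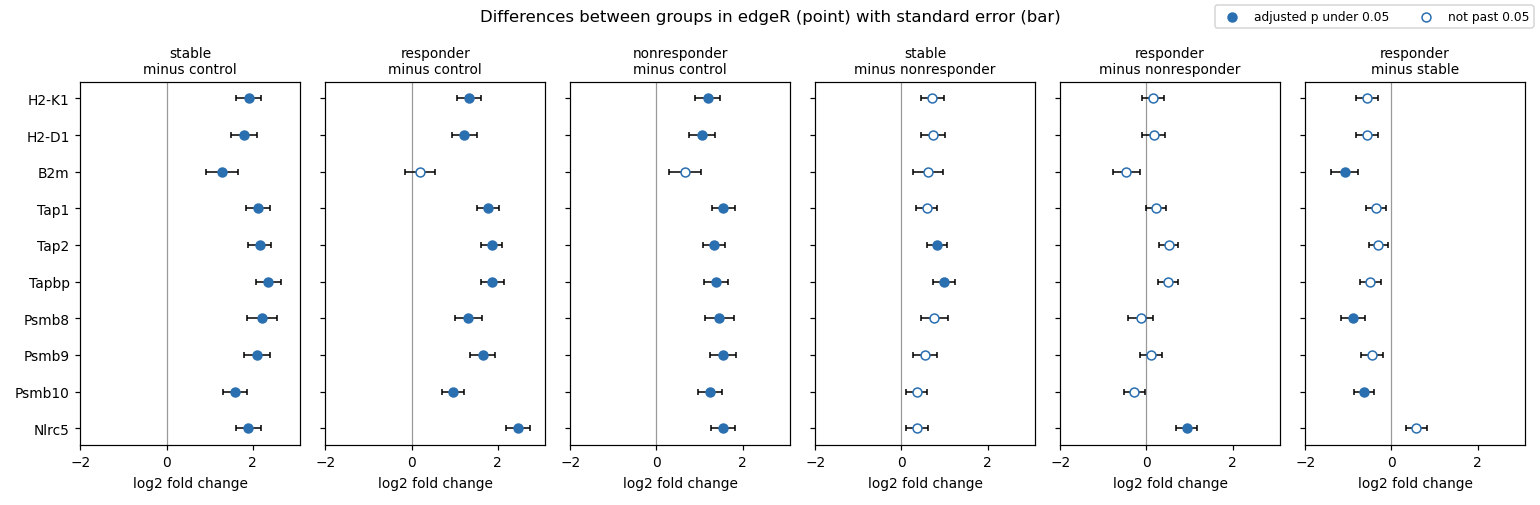
Log2 fold change of each gene in the 6 group comparisons (points) with its standard error (bars). Filled points passed an adjusted p of 0.05 in edgeR: 10, 9 and 9 genes in the comparisons with controls, and 2, 1 and 3 in the comparisons between outcome groups.

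Psmb8, Psmb9 and Psmb10 encode the catalytic subunits of the immunoproteasome, which take the places of Psmb5, Psmb6 and Psmb7 and shift cutting towards peptides that class I molecules hold well. Psmb8 stood at 43.5, 51.2, 42.0, 42.9 and 84.1 CPM in controls 1 to 5. It ran from 59.0 through 123 to 325 CPM in non-responders, from 201 through 244 to 298 in stable tumours and from 98.5 through 115 to 263 in responders. Control 5 stood apart from the other controls, and responder 5 from the other responders, the next of which was at 128 CPM. Psmb8 was higher than in controls by a log2 fold change of 2.21 in stable tumours (SE 0.35, edgeR adjusted p = 1.92e-05), 1.32 in responders (SE 0.32, adjusted p = 0.00106) and 1.45 in non-responders (SE 0.34, adjusted p = 0.00507). It was lower in responders than in stable tumours by -0.89 (SE 0.29, adjusted p = 0.0193).

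Psmb9 stood at 18.0, 21.0, 21.0, 21.0 and 40.6 CPM in controls, from 26.3 to 142 (median 68.5) in non-responders, from 88.3 to 115 (median 102) in stable tumours and 63.4 to 110 (median 69.9) in responders. Stable tumours were the most uniform group, and 7 of 8 responders lay below all of them. Its log2 fold change over controls was 2.09 in stable tumours, 1.65 in responders and 1.55 in non-responders (edgeR adjusted p = 8.79e-06, 3.64e-05 and 0.00124).

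Psmb10 stood at 30.6, 31.4, 29.5, 31.8 and 48.0 CPM in controls, from 37.1 to 162 (median 73.2) in non-responders, from 92.5 to 122 (median 99.1) in stable tumours and 49.3 to 118 (median 58.3) in responders. It had the lowest fold change over controls among the 9 genes called in responders, 0.96 (edgeR adjusted p = 0.00246), against 1.59 in stable tumours (adjusted p = 5.99e-05) and 1.24 in non-responders (adjusted p = 0.00326). It was lower in responders than in stable tumours by -0.63 (SE 0.24, adjusted p = 0.0382). That call was lost without any one of 11 tumours, stable 2 to 6 and responders 2, 3, 4, 6, 7 and 8, with adjusted p up to 0.0772.

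Set against the subunit it replaces in the same library, each immunoproteasome gene was higher in every group than in controls. Psmb8 counts per Psmb5 count were 0.795, 1.07, 0.967, 0.913 and 1.86 in controls, from 1.39 to 6.38 in non-responders, from 5.68 to 7.43 in stable tumours and 3.41 to 6.26 in responders. Psmb9 counts per Psmb6 count ran from 0.227 to 0.547 in controls, from 0.504 to 1.73 in non-responders, from 1.24 to 1.90 in stable tumours and 1.23 to 2.81 in responders. Psmb10 counts per Psmb7 count ran from 0.367 to 0.637 in controls, from 0.609 to 2.43 in non-responders, from 1.55 to 2.33 in stable tumours and 1.37 to 2.27 in responders. No stable tumour or responder overlapped the controls for any of the 3 ratios, and in each it was non-responders 2 and 3 that did.

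On the log2 scale these ratios were higher in stable tumours than in controls by 2.55, 2.19 and 2.04, each with an exact permutation p of 0.00216, the smallest these groups can give (adjusted p = 0.00812 over 30 tests). Responders exceeded controls by 2.15, 2.47 and 2.05, each with an exact p of 0.000777, again the smallest possible (adjusted p = 0.00777). Non-responders exceeded controls by 1.51, 1.61 and 1.39 (exact p = 0.013, adjusted p = 0.026 for each). Stable tumours exceeded non-responders in Psmb8 over Psmb5 by 1.04 (exact p = 0.0108, adjusted p = 0.026), a call lost without stable 3, but not beyond 0.05 in the other 2 ratios (0.59 and 0.65, adjusted p = 0.17 and 0.119).

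Responders and stable tumours, which differed in the level of Psmb8 and Psmb10, were closer in these ratios. Psmb10 over Psmb7 differed by 0.00 (exact permutation p = 0.987, adjusted p = 0.989) and Psmb9 over Psmb6 by 0.28 (exact p = 0.207, adjusted p = 0.249). Psmb8 over Psmb5 was lower in responders by -0.39 (exact p = 0.0167, adjusted p = 0.0278), which did not hold without stable 3 or stable 6. Against non-responders, responders were higher in Psmb9 over Psmb6 by 0.86 (exact p = 0.0203, adjusted p = 0.0321), which did not hold on RPKM values or without any one of 6 tumours (non-responders 2 and 3, responders 4, 6, 7 and 8). In edgeR on the genes singly, Psmb9 differed by 0.11 (adjusted p = 0.749) and Psmb6 was lower in responders by -0.50 (adjusted p = 0.027).

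**Figure D3:**
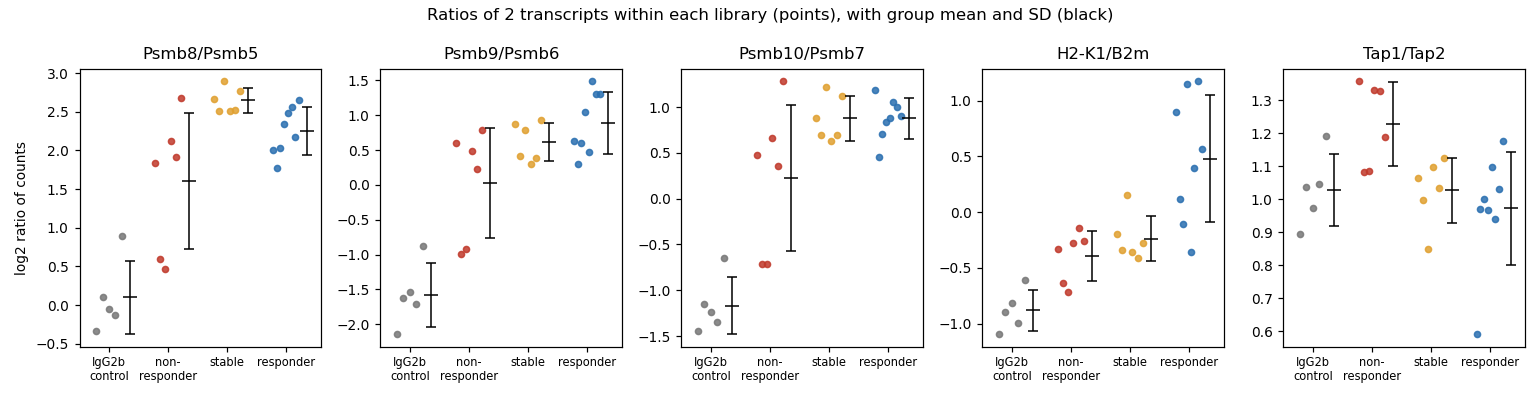
Count ratios within each library on a log2 scale (points), by group, with mean and SD in black: Psmb8/Psmb5, Psmb9/Psmb6, Psmb10/Psmb7, H2-K1/B2m and Tap1/Tap2. The immunoproteasome ratios of stable tumours and responders lie above all controls, while Tap1/Tap2 stays between 0.59 and 1.36 in all 25 tumours.

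The other proteasome genes are given for comparison. Of 16 constitutive proteasome genes, 0 passed 0.05 in edgeR in stable tumours against non-responders (0 at an unadjusted p under 0.05, and 0 in DESeq2 and in limma), with a median of -0.02. Against controls, 0 passed in non-responders (1 unadjusted, 1 in DESeq2 and 1 in limma), with a median of -0.14. In stable tumours against controls, where all 10 class I genes were higher, 3 of the 16 were lower (19.6% of all genes) and none higher, with a median of -0.18. In responders all 16 were lower than in controls, stable tumours and non-responders, with medians of -0.85, -0.69 and -0.76 (28.9%, 17.8% and 23.8% of all genes were lower in these comparisons). With the protein-coding share as a term of the fit, edgeR called 6 of 16 lower against controls, 0 against stable tumours (1 unadjusted) and 0 against non-responders (3 unadjusted). Without responders 1 and 4 it called 14, 13 and 13. Psmb5, Psmb6 and Psmb7 were lower in responders than in stable tumours by -0.50, -0.66 and -0.63 (edgeR adjusted p = 0.0262, 0.0091 and 0.00554). Psme1 and Psme2, which encode the interferon-induced PA28 cap of the proteasome, were higher in stable tumours than in controls by 1.33 and 1.53 (adjusted p = 8.75e-05 and 4.70e-05) and lower in responders than in stable tumours by -0.90 and -0.82 (adjusted p = 0.00376 and 0.00824).

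Nlrc5 encodes the activator that drives transcription of class I heavy chains, B2m, Tap1 and immunoproteasome genes. It stood at 62.6, 90.6, 80.3, 78.2 and 118 CPM in controls 1 to 5. It ran from 125 through 283 to 380 CPM in non-responders, from 263 through 318 to 389 in stable tumours and from 289 through 524 to 655 in responders. It was the only one of the 10 in which every non-responder exceeded every control, and 5 of 8 responders exceeded every stable tumour. Over controls its log2 fold change was 2.47 in responders (SE 0.28, edgeR adjusted p = 2.71e-07), 1.90 in stable tumours (SE 0.28, adjusted p = 1.18e-05) and 1.54 in non-responders (SE 0.28, adjusted p = 0.0008).

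Nlrc5 was also the only member in which responders exceeded non-responders, by 0.93 (SE 0.25, edgeR adjusted p = 0.00409), and this held without any single tumour. When the share was added to the fit as a covariate, the difference in Nlrc5 was 0.50 (adjusted p = 0.254). The difference from stable tumours was 0.57 (SE 0.24, adjusted p = 0.0645), and without non-responder 2 or 3, or responder 2, 3 or 5, it passed 0.05. It fell to 0.13 (adjusted p = 0.879) with the covariate and 0.44 (adjusted p = 0.208) without responders 1 and 4. Responders 2, 3 and 5, at 289, 333 and 299 CPM, had the highest protein-coding shares of their group. Per length, Nlrc5 was the least abundant of the 10 genes in controls (8.31 ± 2.06 RPKM, SD, n = 5), non-responders (25.4 ± 10.0, n = 6) and stable tumours (30.7 ± 6.55, n = 6), but the 7th in responders (55.0 ± 21.1, n = 8). In that group its spread covered the levels of Psmb8 (76.0 RPKM) and Tap1 (65.3) above it and of Psmb9 (52.5), Psmb10 (41.2) and Tap2 (40.0) below it.

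Of 11 genes for factors that act on class I promoters, 6 were higher and 1 lower in stable tumours than in controls, against 22.2% and 19.6% of all genes. Irf1, which binds the interferon-stimulated response element and acts on most of these promoters, was higher than in controls by 2.74 in stable tumours, 2.23 in responders and 1.86 in non-responders (edgeR adjusted p = 1.00e-06, 1.93e-06 and 0.000514). Nfkb1, whose product binds the NF-kB site, was higher in stable tumours than non-responders by 0.38 (adjusted p = 0.0118). Nfyc, a subunit of the CCAAT-binding NF-Y, was lower by -0.61 (adjusted p = 0.0162).

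Genes of the interferon gamma signal itself were higher in 7 of 7 cases in stable tumours over controls, 5 of 7 in responders and 3 of 7 in non-responders, against 22.2%, 36.1% and 10.6% of all genes. Ifng was higher by 4.76, 4.00 and 3.66 (edgeR adjusted p = 8.00e-06, 1.81e-05 and 0.000793). Stable tumours exceeded non-responders in 5 of the 7, against 7.08% of all genes. Among them were Jak1, the receptor-bound kinase (0.46, adjusted p = 0.0157), and the feedback inhibitors Socs3 (0.83, adjusted p = 0.0134) and Socs1 (1.00, adjusted p = 0.0286). Responders were lower than stable tumours in 3 of the 7, against 17.8% of all genes. Among them were Jak1 (-0.52, adjusted p = 0.0031) and Ifngr2, a receptor chain (-0.36, adjusted p = 0.0203).

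The other class I genes, with sequences close to H2-K1 and H2-D1, moved in the same direction against controls. Of 12 listed, 9 were tested, and 9 were higher in stable tumours, 9 in responders and 8 in non-responders. Of all genes, 22.2%, 36.1% and 10.6% were higher in these comparisons. H2-Q7 was higher by 2.40, 2.57 and 1.72 (edgeR adjusted p = 2.19e-06, 3.23e-07 and 0.000637), and H2-T23, which encodes the ligand of an inhibitory NK receptor, by 2.71, 1.95 and 1.78 (adjusted p = 5.89e-06, 5.81e-05 and 0.002). Responders exceeded non-responders in 5 of these 9 genes, including H2-Q7 (0.85, adjusted p = 0.00968), against 25.2% of all genes. They exceeded stable tumours in 2, H2-Q10 (0.88, adjusted p = 0.019) and H2-K2 (0.75, adjusted p = 0.0323). That is near the share of all genes, of which 3689 of 18031 were higher in this comparison. Reads shared among these copies make single values uncertain.

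Leukocyte genes were also higher in the anti-CTLA-4 tumours. The summed level of 4 pan-leukocyte genes ran from 137 to 286 CPM in controls, from 221 to 1024 in non-responders, from 958 to 1394 in stable tumours and 682 to 1217 in responders. All 4 were higher than in controls in each of the 3 anti-CTLA-4 groups. Of all genes, 22.2% were higher than in controls in stable tumours, 36.1% in responders and 10.6% in non-responders. Ptprc, which encodes the common leukocyte antigen CD45, was higher by 2.92 in stable tumours, 2.67 in responders and 1.85 in non-responders (edgeR adjusted p = 8.81e-07, 4.01e-07 and 0.000596), and by 1.07 in stable tumours over non-responders (adjusted p = 0.0161). The median log2 fold change of the 4 genes over controls was 2.41 in stable tumours, 1.96 in responders and 1.48 in non-responders, beside 2.00, 1.49 and 1.36 for the 10 class I genes. The part of leukocytes in the class I levels was not tested.

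Of 8 T cell genes, 8 were higher than in controls in each anti-CTLA-4 group, with sums of 8.66 to 27.7 CPM in controls, from 23.7 to 206 in non-responders, from 145 to 229 in stable tumours and 87.0 to 260 in responders. Cd8a was higher by 3.67 in stable tumours, 3.95 in responders and 3.19 in non-responders (edgeR adjusted p = 1.38e-05, 2.77e-06 and 0.000627). The sum of 7 macrophage genes ran from 547 to 970 CPM in controls, from 749 to 2403 in non-responders, from 2155 to 3370 in stable tumours and 957 to 2997 in responders. Of these, 6 were lower in responders than in stable tumours, against 17.8% of all genes. B2m, Psmb8 and Psmb10 were lower in that comparison too, as were all 16 constitutive proteasome genes. The sum of 5 dendritic cell genes ran from 20.6 to 54.4 CPM in controls, from 43.4 to 317 in non-responders, from 235 to 364 in stable tumours and 146 to 371 in responders. No gene of these 4 lists was at 0 in any tumour. In stable tumours over controls, edgeR also called 4 of 4 NK cell genes, 4 of 4 B cell genes, 3 of 4 neutrophil genes and 5 of 5 fibroblast genes higher, against 22.2% of all genes. All 7 melanocytic genes and 2 of 4 endothelial genes were lower in stable tumours than in controls, against 19.6% of all genes. Of 4 keratinocyte and 4 skeletal muscle genes, 0 passed (0 at an unadjusted p under 0.05). The part of these cell types in the class I levels was not tested.

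The responder comparisons carried the difference in library composition. In responders against stable tumours, 7 of 8 responders were under the lowest stable tumour for H2-K1, H2-D1, B2m, Tap1, Psmb8, Psmb9 and Psmb10, and the exception in each was responder 5, whose protein-coding share was 87.0%. Without responder 5, 6 members differed, but the genes called overall also rose, from 6891 of 18031 to 8862 of 17990. H2-K1 (-0.70), H2-D1 (-0.71), B2m (-1.44), Psmb8 (-1.12) and Psmb10 (-0.80) were then lower and Nlrc5 (0.65) was higher. Without responders 1 and 4, whose shares were under 60%, no member passed 0.05, while 4018 of 17974 genes did. B2m was then at -0.89 (edgeR adjusted p = 0.0562), Psmb8 at -0.80 (adjusted p = 0.072) and Psmb10 at -0.60 (adjusted p = 0.0918). With that share as a covariate, 0 of 18031 genes passed, and B2m was at -0.56 (adjusted p = 0.464). At an unadjusted p under 0.05, 3 members passed without responders 1 and 4 and 0 with the covariate, against 7 in the fit of all tumours. DESeq2 on all tumours called 4, with 3 lower and Nlrc5 higher. Limma on all tumours called 3, with 2 lower and Nlrc5 higher, and no longer called Psmb10.

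**Figure D4:**
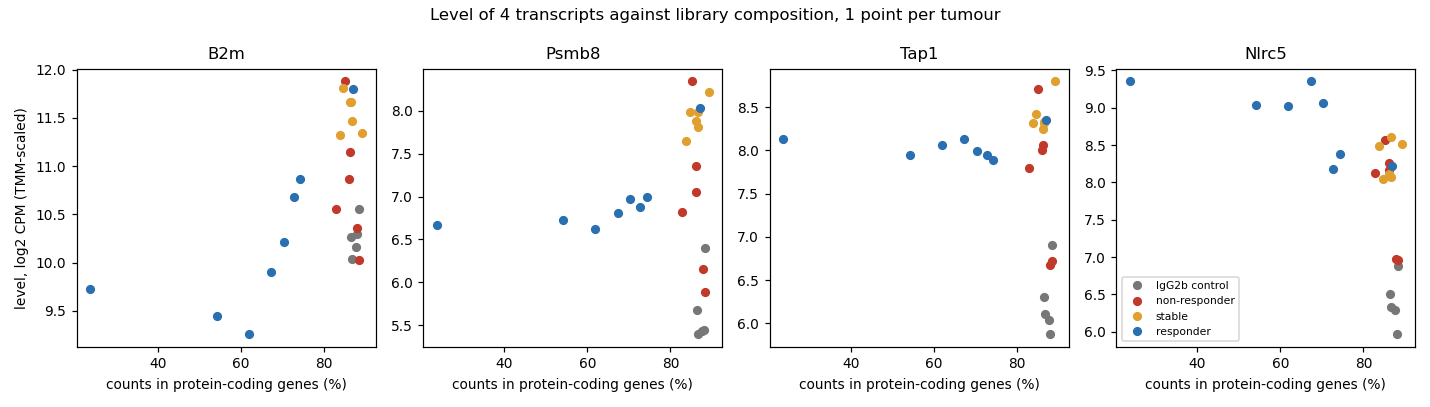
Level of B2m, Psmb8, Tap1 and Nlrc5 (log2 CPM) against the percentage of counts in protein-coding genes, 1 point per tumour, coloured by group. Responders spread from 23.8% to 87.0% and the other groups lie above 82%, with responder 5 among the stable tumours for B2m and Psmb8.

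Differences between responders and stable tumours also followed transcript length. Over deciles of the protein-coding genes by longest annotated transcript, the median log2 fold change went from -0.41 in the shortest decile (up to 1373 bases) to 0.18 in the longest (from 6793 bases). B2m (860 bases) and Psmb10 (1311 bases) belong to the shortest decile and Nlrc5 (7578 bases) to the longest. Psmb8 (1907 bases), H2-K1 (1874 bases) and H2-D1 (2102 bases) lie in the second and the third decile, whose medians were -0.30 and -0.21. B2m, at -1.09, and Psmb8, at -0.89, were further below 0 than their deciles, and Nlrc5, at 0.57, was further above. In stable tumours against non-responders the medians of the deciles stayed between -0.05 and 0.04, while all 10 members were above 0.3. From the shortest to the longest decile, medians of responders went from -0.42 to 0.12 against non-responders and from -0.48 to 0.27 against controls. Against controls they went from -0.19 to 0.07 in stable tumours and from -0.17 to 0.12 in non-responders. Nlrc5, alone higher in responders than non-responders, and B2m, alone not higher in responders than controls, lie at the ends of this trend. The part of transcript length in the members' differences was not tested.

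**Figure D5:**
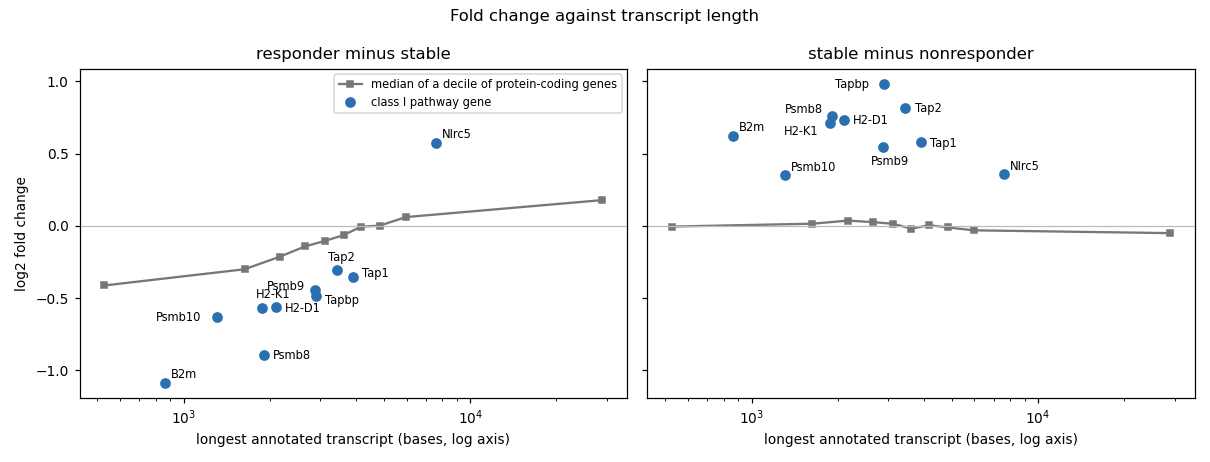
Log2 fold change against the longest annotated transcript (log axis) for the 10 genes (circles) and the medians of deciles of the protein-coding genes (squares), for responder minus stable and stable minus non-responder. In the left panel the members run from B2m at -1.09 to Nlrc5 at 0.57, and all but Nlrc5 lie below the medians at their length, and in the right panel all 10 lie above nearly flat medians.

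Non-responders were the group with the largest SD of log2 CPM for 9 of the 10 genes, and responders for B2m. Non-responder 6 held the highest value of its group for all 10 genes, and non-responders 2 and 3 the 2 lowest. Leaving out non-responder 6 raised the number of members higher in stable tumours than non-responders from 2 to 8, all but B2m and Nlrc5. Their log2 fold changes ran from 0.67 (Psmb10) to 1.29 (Tapbp). Over all genes, the number higher rose from 1276 of 18031 to 1991 of 17995. Leaving out non-responder 2, non-responder 3 or stable 3 left Tapbp alone. Without non-responder 6, Tap2 (0.80, edgeR adjusted p = 0.00223) and Tapbp (0.80, adjusted p = 0.00417) joined Nlrc5 as higher in responders than in non-responders, and without responder 5 B2m was lower there (-0.81, adjusted p = 0.0124). Over all genes in that comparison, 4414 of 17995 were higher without non-responder 6 and 4930 of 17990 lower without responder 5.

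Genes whose level went along with the members were sought over the 25 tumours after subtracting each group's mean, so that group differences did not enter, and the correlations are given as descriptions over tumours that share their groups and scaling. The non-responders, whose levels spread most, weigh most in these correlations. Their SD of log2 CPM was 0.81 for H2-K1, 0.81 for Tap1 and 0.88 for Psmb8, against 0.15, 0.20 and 0.19 in stable tumours. There were 15324 genes with a mean of at least 1 CPM. Leaving out the members and listed genes, predicted genes, pseudogenes, ribosomal protein genes and receptor segments, H2-K1 was most like Bcl2a1a (r = 0.971, rank 4 of all genes), an anti-apoptotic gene of haematopoietic cells, the interferon-induced GTPase Gbp2 (0.959) and the class II peptide editor H2-DMa (0.955). Psmb8 was most like Bcl2a1a (0.966), Bcl2a1b (0.959) and H2-DMa (0.957). Tap1 was most like Irf8 (0.963), a myeloid transcription factor, and the interferon-induced GTPases Gvin1 (0.960) and Gbp3 (0.947). Nlrc5 was most like Uba7 (0.936), the activating enzyme for ISG15, Traf5 (0.933) and Sp110 (0.925).

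Among the members themselves, H2-K1 was closest to Psmb8 (r = 0.979, rank 2 of all genes) and H2-D1 (0.972, rank 3), and Tap1 to Tap2 (0.954, rank 3) and Psmb9 (0.944, rank 5). Nlrc5 stood furthest from the rest. Its nearest member was Tap1 (0.740, rank 187), while H2-K1 came at rank 1942 (0.457) and B2m at rank 8612 (-0.08). Subtracting group means leaves the spread of protein-coding share within responders. Responders 1, 4 and 7, with the lowest shares, held 655, 528 and 521 CPM of Nlrc5 and 845, 696 and 612 CPM of B2m. Responder 5 held 299 CPM of Nlrc5 and 3562 CPM of B2m. The part of library composition in these correlations was not tested.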

How the data were processed

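RNA-seq libraries of 25 tumours were analysed, 5 controls, 6 non-responders, 6 stable tumours and 8 responders. The submitters' processing notes name bcl2fastq 2.17, Trimmomatic, STAR 2.5.1, RSEM 1.2.22 and the mm10 build. The authors deposited expected counts for 55450 genes, of which 5.64% of values were not whole, and these were rounded to whole numbers for the count tests. The authors also deposited RPKM values (reads per kilobase and M reads) for 19522 symbols, of which 4 duplicated rows were dropped. The RPKM values served for levels between genes and as an alternative. The labels name a stranded total RNA kit and polyA RNA as the molecule, which was not resolved. Each gene identifier matched GENCODE M21 for GRCm38.

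Genes were filtered with edgeR 4.0.16 filterByExpr, leaving 18031, and scaled with TMM. Robust quasi-likelihood F tests compared 4 group means in 1 fit over all tumours, and two-sided p-values were adjusted by Benjamini-Hochberg across these genes. Genes under 0.05 are called. Standard errors came from the fold change and F. Within-library ratios, with 0.5 added to each count, were compared by exact permutation over every split of 2 groups and adjusted over 30 tests. Alternatives used DESeq2 1.42.0 and limma 3.58.1 on log2(RPKM + 1), other filters and scalings, library composition, and leaving out each tumour. All 10 members are named in every comparison. Of each gene list, at most 4 genes with the lowest adjusted p in responder minus stable or stable minus non-responder are named, with Irf1, Ifng, Psmb5, Psmb6, Psmb7, Psme1, Psme2, H2-Q7, H2-T23, Ptprc and Cd8a always; 1 further gene that this rule names is not reported here. For likeness, the 3 genes outside the lists with the highest correlation are named, leaving out predicted genes, pseudogenes, ribosomal protein genes and receptor segments. The members and lists were chosen with earlier results of these data known.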

Additional observations from a re-analysis of the deposited data

Results flagged for a closer look

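In 12 of 60 groups of values examined, 1 tumour stood apart from its group, with a gap to its nearest neighbour, as a share of the group's range, above Dixon's 95% critical value. Chance flags about 1 in 20 groups, and the groups are not independent, since the genes move together within a tumour. Control 5 was the highest control for H2-K1 (gap ratio 0.737, 9.95 log2 CPM against 9.38 in the next), H2-D1 (0.714), Psmb8 (0.716), Psmb9 (0.810) and Psmb10 (0.849). Responder 5 was the highest responder for H2-K1 (0.635, 11.44 log2 CPM against 10.80), Psmb8 (0.734, 8.04 against 7.00), Psmb9 (0.548) and Psmb10 (0.539). Stable 3 was the highest stable tumour for Tap1 (0.693) and Tap2 (0.810, 7.95 log2 CPM against 7.34). Responder 1 had the lowest log2 ratio of Tap1 to Tap2 (0.599, 0.59 against 0.94 in the next responder).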

How the results depend on the processing

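The counts of members called against controls held best. Stable minus control gave 9 or 10 in every alternative, including each left-out tumour. Responder minus control gave 9 in each except 5 at a 2-fold change, and non-responder minus control gave 0 at a 2-fold change (6 unadjusted), 6 when only these groups were fitted and 8 to 9 with a tumour left out. Stable minus non-responder (2) gave 4 in DESeq2, 5 in each of the 3 limma settings, 0 when only these groups were fitted (6 unadjusted), 0 at a 2-fold change (0 unadjusted) and 1 to 8 with a tumour left out. Responder minus non-responder (1) gave 2 in DESeq2 and with protein-coding genes only, 3 with the stricter filter and in each limma setting, 0 at a 2-fold change (0 unadjusted), 0 (0 unadjusted) when the protein-coding share was a covariate and 1 to 3 with a tumour left out. Responder minus stable (3) gave 8 when only these groups were fitted, 0 at a 2-fold change (0 unadjusted), 0 with the covariate (0 unadjusted), 0 without the libraries under 60% protein-coding (3 unadjusted) and 2 to 6 with a tumour left out. The cause was not tested. Each left-out tumour that changed a count in these 3 comparisons by over 1.5 times is named in the report, except that in responder minus stable 5 members were called without non-responder 2 and 6 without non-responder 6. Over all genes, the covariate gave 1810 calls against 8823 in responder minus non-responder and 0 against 6891 in responder minus stable, where leaving out the libraries under 60% gave 4018.

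In responder minus non-responder, where these genes did not pass 0.05, B2m turned from -0.47 to 0.0486 with the covariate, and Psmb8 from -0.13 to 0.18 with the covariate and in limma to 0.0396 with RPKM + 1, filtered or not, and 0.0422 with RPKM + 0.1. Leaving out a tumour gave -0.00924 to 0.48 for H2-K1, -0.35 to 0.29 for Psmb8, -0.0656 to 0.43 for Psmb9 and -0.45 to 0.0427 for Psmb10, and -0.15 to 0.31 for B2m in responder minus control. The ratio of Psmb10 to Psmb7 in responder minus stable, near 0, turned to -0.00398 with a pseudocount of 5 and -0.0312 on RPKM, with -0.0460 to 0.0714 over left-out tumours. That of Tap1 to Tap2 in stable minus control turned to 0.00121 with a pseudocount of 5, with -0.0341 to 0.0399 over left-out tumours. Psmb9 to Psmb6 in responder minus non-responder was 0.67 on RPKM and no longer passed.

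The lowest member count, 299, in any tumour bounds the counting error, and precision otherwise rests on the 5 to 8 tumours per group. No paired analysis was possible because the labels carry tumour identifiers only and replicate numbers follow record order.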
